A study of Homo sapiens with 12 samples.

Results

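The CCN family of matricellular proteins and 4 further genes known as targets of the transcriptional co-activator YAP were examined in an accessibility map of HT1080 cells, a long-established line derived from a human fibrosarcoma. The set was a list of 10 gene names, CCN1 to CCN6, ANKRD1, AMOTL2, AXL and AJUBA, out of 20037 protein-coding genes on the autosomes, X and Y. A peak summit was given to one of these genes when it lay inside the gene or within 50 kb of it and no other coding gene was nearer. By that rule the 10 genes held 58 of the 188019 summits in the deposited list, in 50 intervals. A further 41 summits within 50 kb of these genes were nearest to another coding gene.

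Chromatin was profiled by ATAC-seq, in which a transposase cuts and tags open DNA. Cells had spent 48 h in rat tail type I collagen at 0.3 (low), 1.0 (medium) or 1.7 mg/mL (high), with 4 libraries per concentration and 12 in all. The cell density was 100000 per mL in every group. All 3 groups, the low concentration included, received GM6001 at 20 µM, an inhibitor that blocks matrix metalloproteinases broadly, so no group without the inhibitor was included. The peaks came as 1 list pooled over the series, with no column for a library or a concentration. The values below therefore describe the pooled libraries of 1 cell line: they compare no concentrations, carry no spread between replicates, and rest on a depth per library that is unknown here.

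The label of a mesenchymal tumour line was checked by whether marker genes had a summit within 1000 bp of a start, which 65.9% of coding genes did. All 8 mesenchymal markers did. The strongest summit there had a pileup (fragments overlapping at the summit) from 128 at PDGFRB to 2703 at VIM, with a median of 738 beside 768 over coding genes with such a summit. Of 6 epithelial markers 1 did, EPCAM, with a pileup of 44. Away from starts, however, the epithelial genes CLDN4 and EPCAM had summits with pileups of 2640 and 1097. The blood list had 2 of 4 (CD3E and SPI1), and the liver and nerve list had 2 of 4 (SYP and RBFOX3).

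YAP and its paralogue TAZ shuttle between cytoplasm and nucleus in response to cell shape, matrix stiffness and the Hippo kinases, which retain them in the cytoplasm. They do not bind DNA themselves and act through TEAD factors, often at sites shared with AP-1. CCN1 and CCN2, long known as CYR61 and CTGF, are the readouts most often used for that activity. Both are secreted proteins that bind integrins and heparan sulphate and are strongly made by stromal cells. CCN3 was first described as NOV, and CCN4, CCN5 and CCN6 as the WISP proteins.

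The proximal promoters of the set are shown first, because the letters known as the TEAD motif can be read in them. RefSeq promoter windows of GRCh38.p14, spanning 250 bases before to 50 after a start, were matched for 6 of the 10 genes (CCN2, CCN6, ANKRD1, AMOTL2, AXL and AJUBA) and numbered 9, since AMOTL2, AXL and AJUBA have a pair of starts each. The 250 bases before the start are printed for the 3 genes whose TEAD matches lay inside a peak interval, 5′ to 3′ on the transcribed strand. Capitals mark TEAD matches (CATTCC or its reverse complement GGAATG) and also, in ANKRD1, an AP-1 match (TGANTCA, here TGATTCA) and, in CCN2, a TATA box (TATAAA).
CCN2, chr6:131951373-131951622, minus strand: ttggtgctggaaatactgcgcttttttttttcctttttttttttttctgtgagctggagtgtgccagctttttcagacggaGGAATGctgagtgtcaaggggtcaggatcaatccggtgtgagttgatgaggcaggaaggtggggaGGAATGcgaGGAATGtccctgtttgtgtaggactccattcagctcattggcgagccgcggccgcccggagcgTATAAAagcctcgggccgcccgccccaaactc
ANKRD1, chr10:90921088-90921337, minus strand: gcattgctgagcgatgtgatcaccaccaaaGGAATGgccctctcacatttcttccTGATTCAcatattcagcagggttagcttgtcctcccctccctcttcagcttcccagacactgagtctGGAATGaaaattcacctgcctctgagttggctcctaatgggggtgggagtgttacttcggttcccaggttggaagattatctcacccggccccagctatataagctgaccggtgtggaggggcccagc
AMOTL2, downstream start, chr3:134374448-134374697, minus strand: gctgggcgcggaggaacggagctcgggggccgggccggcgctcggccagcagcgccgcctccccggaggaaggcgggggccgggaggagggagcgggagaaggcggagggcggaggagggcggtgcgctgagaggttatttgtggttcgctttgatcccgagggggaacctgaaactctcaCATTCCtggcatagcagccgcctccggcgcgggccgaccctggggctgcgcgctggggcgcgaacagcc

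For the 3 genes whose TEAD matches lay outside every interval, 60 bases around a match are shown, with the match in capitals.
AXL, downstream start, chr19:41226516-41226575, plus strand: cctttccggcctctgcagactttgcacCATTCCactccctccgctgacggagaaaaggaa
AJUBA, downstream start, chr14:22976869-22976928, minus strand: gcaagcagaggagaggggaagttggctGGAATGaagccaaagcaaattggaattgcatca
CCN6, chr6:112053949-112054008, plus strand: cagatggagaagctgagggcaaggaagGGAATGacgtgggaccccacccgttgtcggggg

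The TEAD motif, searched on both strands, was present at all 6 genes and in 6 of the 9 windows. Among all 35116 RefSeq promoter windows of the same length 14.0% held it, and by gene it was found at 15.6% of the 15843 coding genes with an entry. The share by gene was 15.1% where the start had a summit and 16.5% where it had none. CCN2 had 3 matches, at −169 to −164, −104 to −99 and −95 to −90 relative to the start, and ANKRD1 had 2, at −220 to −215 and −128 to −123. Windows with at least 2 matches made up 1.37% of the 35116 and windows with at least 3 made up 0.128%. CCN6 also had 2, of which the second spanned the start from −1 to 5. AMOTL2, AXL and AJUBA had a single match each, all at the downstream start. These matches are strings of letters and were not tested for binding.

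Of the 10 TEAD matches, 6 lay inside an accessible interval, those of CCN2, ANKRD1 and AMOTL2. Over the promoter windows of all coding genes with an entry, 41.7% of 2865 matches did. By gene it was 3 of 6, beside 44.2% of the 2467 coding genes with a match, a share near that background. In ANKRD1 the match nearest the summit was 30 bp from it, and the AP-1 match lay 56 bp from it, between the TEAD matches. In AMOTL2 the distance was 44 bp, and in CCN2 the 3 matches lay 80, 90 and 154 bp from the summit. The AXL match began 1 base beyond the end of the gene's strongest interval (41225559 to 41226542) and lay 542 bp from its summit. The AJUBA match was 966 bp from the nearest summit and the CCN6 matches were 4768 and 4896 bp from it.

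The other motifs searched were found at fewer of the 6 genes. AP-1 was found at 1 of the 6 genes, ANKRD1, against 8.04% of coding genes with an entry. The TATA box, as the exact letters TATAAA, was found at 1, CCN2, against 12.4%. The similar letters tatataag in the printed ANKRD1 window were not counted. GC boxes (GGGCGG, the core of Sp1 sites) were found at 4 genes, CCN2, AMOTL2, AXL and AJUBA, against 64.3%, and the CCAAT box (CCAAT) at 2, CCN2 and AJUBA, against 42.1%. No window held a CArG box, the site of SRF (1.69% of coding genes), or the ETS motif (CCGGAAG, 16.5%). The search was by letters only, and motifs could overlap one another.

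**Figure D1:**
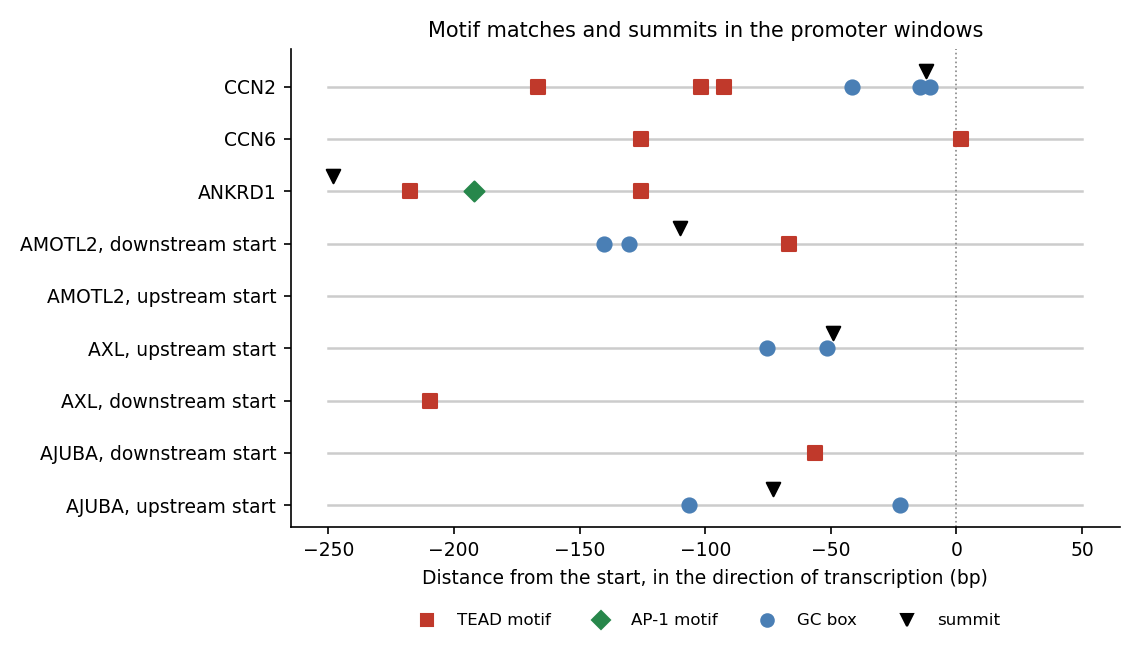
Matches to the TEAD motif (squares), the AP-1 motif (diamonds) and the GC box (circles) in the 9 promoter windows, by distance from the start in bp in the direction of transcription; triangles are peak summits. TEAD squares are present in 6 rows, with 3 at CCN2 and 2 each at CCN6 and ANKRD1, and the CCN6 row has no summit.

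Each summit carries the authors' enrichment, a fold over the local background used by the peak caller. From that fold and the p-value of the line, 2 quantities were recovered, the pileup (how many fragments overlap there) and the local background. Fragments are the assumed unit, and whether the peak caller counted fragments or reads was not checked. The error given with a pileup is its 95% exact Poisson interval, which covers counting error only. RefSeq gives genomic spans for the genes. Starts were taken from the promoter table. For CCN1, CCN3, CCN4 and CCN5, and for all other coding genes without an entry there, either end of the gene stood in. The summits reported as starts for these 4 genes all lay at the lower-coordinate end.

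CCN1 spans 85580761 to 85583950 on chromosome 1 and had 5 summits. The summit at its start lay on the first base of the gene, in the interval 85580463 to 85581476, with a pileup of 2031 fragments (1944 to 2121) over a background of 232.5 and an enrichment of 8.70. A second strong site lay 23.4 kb beyond the other end of the gene, in the interval 85606985 to 85607712. Its enrichment was 13.6 and its pileup 2555 (2457 to 2656), 1.26 times that of the start, and the intervals of the pileups did not overlap. No gene of the RefSeq table covered it. Among the 14665 coding genes with a summit away from a start, the pileup of the strongest such summit put CCN1 at rank 192, the percentile 98.7. Another site, 28.1 kb beyond the gene, had a pileup of 908 (850 to 969), while the remaining 2 had 41 and 108. On the other side of the gene a summit 3.76 kb away, with a pileup of 832, lay within DDAH1 and was counted there.

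CCN2 spans 131948176 to 131951372 on chromosome 6, on the minus strand. All 3 of its summits lay in 1 interval of 1753 bp, from 131949862 to 131951614, which covers the start and part of the gene. The strongest was 12 bp before the start, with a pileup of 1206 (1139 to 1276) and an enrichment of 9.61. The others, 924 and 1250 bp into the gene, had pileups of 356 (320 to 395) and 378 (341 to 418), so the start stood 3.19 times above the strongest summit away from it. All 3 positions also lay within the antisense RNA gene CCN2-AS1. Although 79 kb were nearer to CCN2 than to any other coding gene within the 50 kb limit, no summit was assigned to it outside that interval. The next summit with CCN2 as its nearest coding gene lay 90.6 kb away, with an enrichment of 2.30.

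CCN1 and CCN2, the pair used together as YAP readouts, thus differed in layout. At the start the pileup of CCN1 exceeded that of CCN2, with intervals that did not overlap, whereas the enrichments of 8.70 and 9.61 were in the opposite order. The background under the CCN1 start was 232.5 fragments and under the CCN2 start 124.6. Away from the start the strongest pileups were 2555 and 378.

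CCN3, a family member better known for restraining proliferation, spans 119416446 to 119424434 on chromosome 8. It had 2 summits in 1 interval of 1327 bp, 135 bp before and 401 bp past its lower-coordinate end. Their pileups were 387 (349 to 428) and 260 (229 to 294), at enrichments of 8.58 and 5.78. No other summit was found within 50 kb, although CCN3 had the second largest neighbourhood of the 10 genes, 108 kb.

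CCN4 and CCN5, both first found as WNT1-induced genes, had weak starts and stronger sites elsewhere. CCN4, at 133191039 to 133231690 on chromosome 8, had a start summit with a pileup of 46 (34 to 61) and an enrichment of 1.93, at the 3.7 percentile by enrichment of coding genes with a summit at a start. That summit did not reach a −log10 q of 10. Inside the gene 5 summits had pileups from 52 to 488, the highest (446 to 533, enrichment 10.7) in the interval 133217581 to 133218405, 13.7 kb from the higher-coordinate end. It was 10.6 times the pileup at the start. A further site 8.41 kb outside the gene had a pileup of 268.

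CCN5, which lacks the C-terminal module of the other CCN proteins, spans 44714861 to 44727811 on chromosome 20. Its start summit, 28 bp outside the lower-coordinate end, had a pileup of 127 (106 to 151) and an enrichment of 4.95. The strongest of its 7 summits lay 21.7 kb away, in the interval 44692855 to 44693476, with a pileup of 862 (805 to 922) and an enrichment of 14.65, the highest of all 58. This was 6.79 times the pileup at the start. With a window of 2500 bp, a summit 1.24 kb past the higher-coordinate end, with a pileup of 376 and an enrichment of 8.38, also counted as a start summit, because either end stands in for the start of CCN5. The other 5 had pileups from 39 to 376. The start and the 3 summits within or beyond the higher-coordinate side of the gene lay within the long noncoding RNA gene KCNK15-AS1.

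CCN6, mutated in a childhood cartilage disease, was the only member of the 10 genes without a summit at a start, and the nearest lay 4894 bp before it. The gene spans 112052813 to 112069686 on chromosome 6, and its start in the promoter table is at 112054104. Its 6 summits were 5 upstream and 1 inside the gene. The strongest were at 112043782 and 112037979, 9.03 and 14.8 kb outside the gene, with pileups of 460 (419 to 504) and 457 (416 to 501), whose intervals overlap, and enrichments of 10.1 and 12.02. The summit inside the gene had a pileup of 95. A stronger site 17.9 kb past the other end, with a pileup of 973, was nearest to TUBE1 and was counted there.

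**Figure D2:**
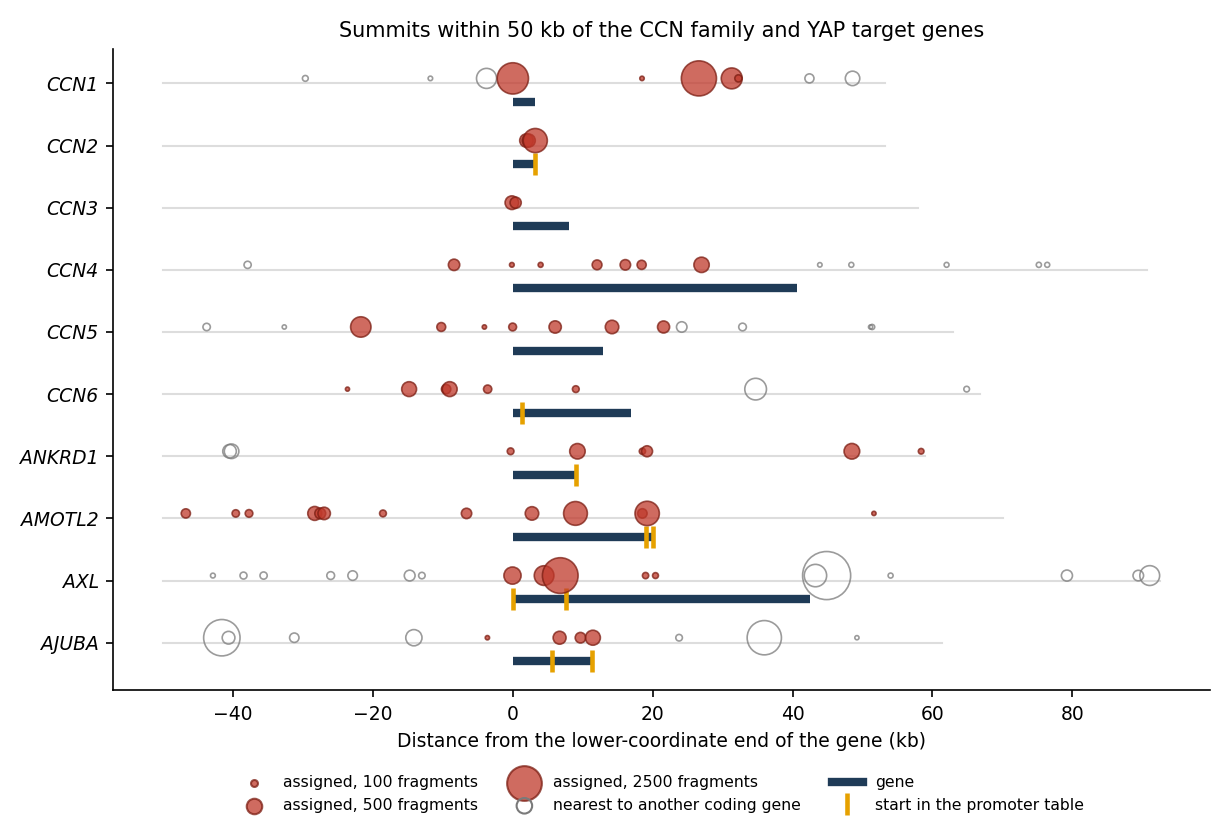
Summits within 50 kb of each gene, by distance in kb from the gene's lower-coordinate end; circle area is proportional to pileup, filled circles are assigned to the named gene, open circles are nearest to another coding gene, dark bars are genes and ticks are starts. CCN2 and CCN3 have filled circles at the start region only, while AMOTL2 has 13 spread over its neighbourhood.

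ANKRD1, at 90912096 to 90921087 on chromosome 10, encodes an ankyrin repeat protein of muscle sarcomeres and nuclei that is induced by stretch. Its start summit, 248 bp upstream in the interval 90921023 to 90921692, had an enrichment of 14.56, the highest at any start of the set, and a pileup of 497 (454 to 543) over a background of 33.2. A site 39.5 kb upstream, within the noncoding gene XLOC_008559, had nearly the same pileup, 508 (465 to 554), with overlapping intervals. The other 4 summits had pileups from 66 to 251.

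AMOTL2 encodes an angiomotin family scaffold that binds YAP and holds it at cell junctions, and so acts as a feedback inhibitor. It spans 134355345 to 134375417 on chromosome 3 and had the most summits, 13, at the 94.4 percentile of coding genes. The strongest start summit lay 110 bp before the downstream start, with a pileup of 1229 (1161 to 1300) and an enrichment of 12.1. A summit inside the gene, 10.1 kb past that start in the interval 134363922 to 134364765, had a pileup of 1172 (1106 to 1241) and an enrichment of 13.1, and the 2 pileups had overlapping intervals. Beyond the 3′ side of the gene 8 summits, 6.62 to 46.8 kb away, had pileups from 96 to 401. No summit lay within the promoter window of the upstream start.

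AXL, the receptor tyrosine kinase for GAS6 that is linked to invasion, spans 41219223 to 41261766 on chromosome 19. Its strongest summit had the highest pileup of the set, 2643 (2543 to 2746), and an enrichment of 9.52, in the interval 41225559 to 41226542, 752 bp before the downstream start. The upstream start had a summit 49 bp before it with a pileup of 613 (565 to 664) and an enrichment of 5.52. With a window of 500 bp, or with gene ends in place of starts, that weaker summit became the strongest at a start. Another summit, between these starts, had a pileup of 802 (747 to 859) over a background of 297.6. The remaining 2, deeper in the gene, had pileups of 81 and 72. Just beyond the end of AXL, summits with pileups of 1040 and 4791 were nearest to HNRNPUL1.

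AJUBA encodes a LIM domain protein that binds and restrains the LATS kinases of the Hippo pathway. It lies at 22971177 to 22982551 on chromosome 14. Its strongest summit was 73 bp before the upstream start, with a pileup of 466 (425 to 510) and an enrichment of 5.53. Next came a summit with a pileup of 348 (312 to 387), 1023 bp before the downstream start and so just outside the 1000 bp window. The other 2 had pileups of 232 and 39. The stretch nearest to AJUBA within the 50 kb limit was the smallest of the set, 20 kb, and the strong sites around it, with pileups of 2435 and 2746, were nearest to C14orf93 and PRMT5.

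In order of pileup at the start, AXL (2643) was followed by CCN1 (2031), AMOTL2 (1229), CCN2 (1206), ANKRD1 (497), AJUBA (466), CCN3 (387), CCN5 (127) and CCN4 (46). Neighbours with overlapping counting intervals were AMOTL2 and CCN2, ANKRD1 and AJUBA, and AJUBA and CCN3. Away from the start, CCN1 (2555) was followed by AMOTL2 (1172), CCN5 (862), AXL (802), ANKRD1 (508), CCN4 (488), CCN6 (460), CCN2 (378) and AJUBA (348). In that order CCN5 overlapped AXL, ANKRD1 overlapped both CCN4 and CCN6, CCN4 overlapped CCN6, and CCN2 overlapped AJUBA. With a window of 500 bp the AXL summit of 2643 would count as away and come first, with an interval overlapping that of CCN1.

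**Figure D3:**
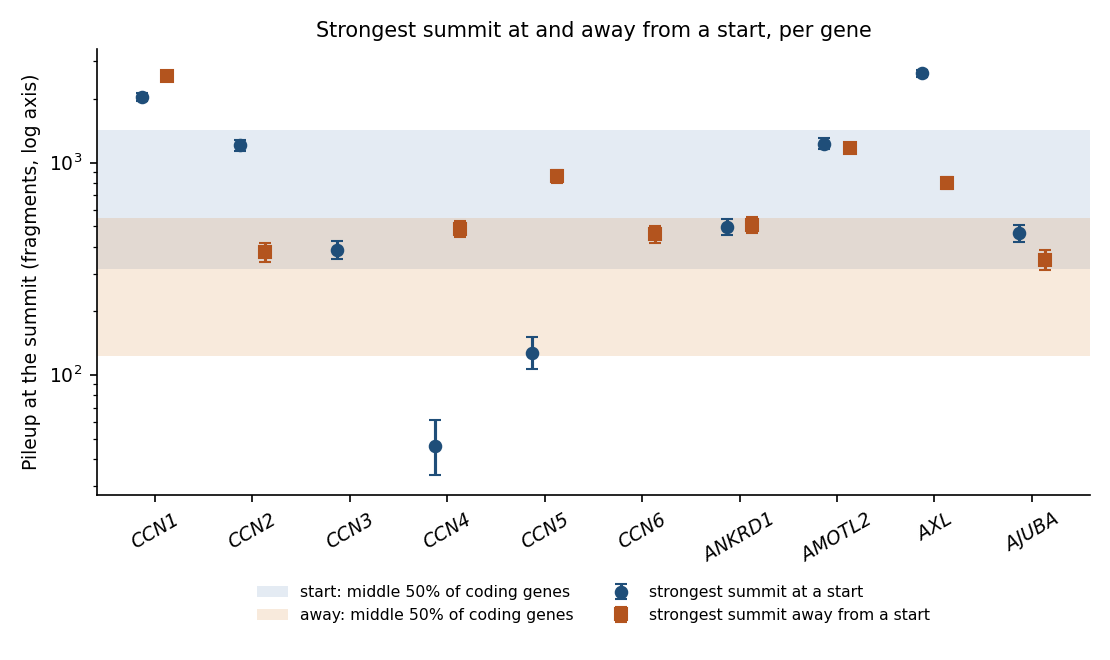
Pileup in fragments (log axis) of the strongest summit at a start (circles) and away from a start (squares) for each gene, with 95% exact Poisson intervals; the bands span the quartiles of all coding genes with such a summit. At CCN1, CCN4 and CCN5 the square lies above the circle, at CCN2, AXL and AJUBA below it, and CCN3 has no square and CCN6 no circle.

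The order by enrichment was different. By enrichment at the start, ANKRD1 (14.6) came first, then AMOTL2 (12.1), CCN2 (9.61), AXL (9.52), CCN1 (8.70), CCN3 (8.58), AJUBA (5.53), CCN5 (4.95) and CCN4 (1.93). ANKRD1 stood at the 72.8 percentile of coding genes by enrichment and at the 35.6 percentile by pileup. For AXL these were 35.8 and 93.8, and for CCN1 31.6 and 87.0. The backgrounds under their strongest start summits were 33.2, 276.8 and 232.5 fragments, against a lowest value of 20.3 anywhere in the list. The local background is that of the same pooled libraries. Whether strong or clustered sites raised their own background, and so lowered their enrichment, was not tested. Of the 58 summits, 51 (87.9%, exact binomial interval 76.7 to 95.0) had a background above that lowest value, compared with 73.3% of the 86760 pairings of a summit with a coding gene.

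**Figure D4:**
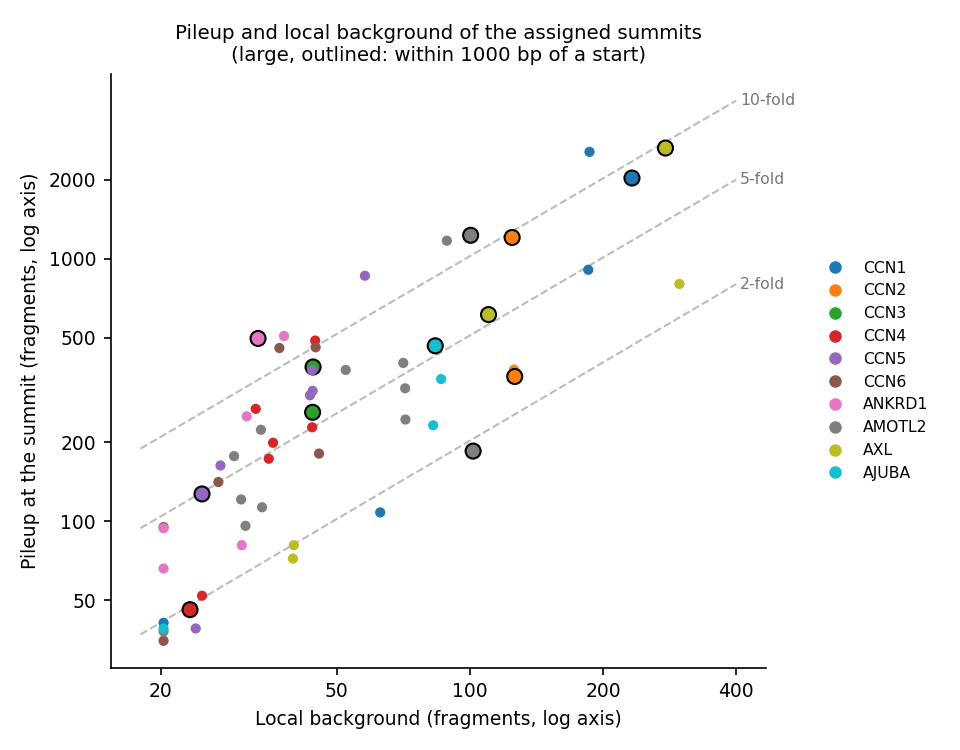
Pileup against local background, both in fragments on log axes, for the 58 assigned summits coloured by gene; large outlined points lie within 1000 bp of a start and dashed lines mark equal enrichment. The AXL and CCN1 start points lie at backgrounds of 276.8 and 232.5, and the ANKRD1 point at 33.2.

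Set beside all coding genes, 9 of the 10 had a summit at a start, where the background share is 65.9%. With a −log10 q of at least 10 the count was 8, beside 60.8%. At the 9 starts the median enrichment was 8.70 and the median pileup 497, while over the 13207 coding genes with a summit at a start the medians were 11.9 and 768. Away from a start, 9 of the 10 genes had a summit (73.2% of coding genes did). The median of the strongest one was 12.02 in enrichment and 508 in pileup, beside 7.95 and 256 over 14665 genes. The genes were uneven in this: AXL (2.69), CCN2 (2.99) and AJUBA (4.01) lay below the enrichment median of all genes, and CCN3 had no summit away from a start. For CCN2 the only such summit lay 1250 bp from the start and in the same interval. For AJUBA the strongest lay 1023 bp from a start, so both depend on the 1000 bp window. The AXL value depends on it too, in the opposite direction. Its summit with a pileup of 2643 and an enrichment of 9.52 lay 752 bp from a start. With a window of 500 bp that summit would count as away from a start. Taking the strongest summit of each gene wherever it lay, the 10 genes were close to the background, with medians of 11.4 in enrichment and 685 in pileup beside 11.5 and 609 over 17286 coding genes. A pileup of at least 1000 away from a start was found at 2 of the 10, CCN1 and AMOTL2, beside 7.99% of coding genes. The strongest summit by enrichment lay away from a start in 5 of the 10 (CCN1, CCN4, CCN5, CCN6 and AMOTL2), near the background of 51.5%. By pileup ANKRD1 replaced AMOTL2 in that group of 5, beside 48.8%. With a window of 500 bp AXL would join both of these groups. It would also join CCN1 and AMOTL2 in having a pileup of at least 1000 away from a start. The matching shares of coding genes at that window are not given here. These are descriptions of 10 chosen genes without a test.

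The number of summits per gene ranged from 2 (CCN3) to 13 (AMOTL2), with a median of 5.5, beside 3 for coding genes. Per 100 kb of sequence nearest to the gene, the median was 10.0 and the range 1.85 (CCN3) to 20.0 (AJUBA), beside a median of 5.0 over coding genes. CCN2 had 3.80 per 100 kb, the lowest value after CCN3. By place, 13 of the 58 summits (22.4%, exact binomial interval 12.5 to 35.3) were at a start, 15 (25.9%, 15.3 to 39.0) elsewhere in the gene and 30 (51.7%, 38.2 to 65.0) outside it. Over all pairings of summits with coding genes the shares were 17.3%, 51.8% and 30.9%. The binomial intervals treat the 58 summits as independent, although they came from 10 genes, and may be too narrow for these shares. The genes of the set were shorter, with a median length of 12163 bp beside 24115 bp for coding genes, and the part of gene length in these shares was not tested.

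Other known YAP targets, a list of 17 genes of published signatures, were read in the same way. A summit at a start was found at 15 of the 17, all but IGFBP3 and NT5E, beside 65.9% of coding genes, and a summit away from a start at all 17, beside 73.2%. A pileup of at least 1000 away from a start was found at 5 (MYOF, NT5E, DOCK5, PTPN14 and ARHGEF17), beside 7.99%. The highest was 1796 at DOCK5, an activator of Rac, followed by 1575 at PTPN14, a phosphatase that binds YAP, both below the 2555 of CCN1. These genes had long stretches nearest to them, from 41 kb at NUAK2 to 829 kb at RBMS3. All but NUAK2 exceeded the coding-gene median of 56 kb, and the part of this length in the counts away from a start was not tested. At the start the list had medians of 9.23 in enrichment and 652 in pileup. These lay between the medians of the 9 starts above and those of coding genes. GADD45A, a stress-induced growth arrest gene, had the highest start pileup of the list, 2036, close to that of CCN1. Of the 12 genes of this list with promoter windows, 5 held the TEAD motif, beside 15.6% of coding genes with an entry.

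At the edge of the 50 kb rule, the outermost summit kept was that of ANKRD1 at 49.4 kb from the gene, with a pileup of 66, and the next was that of AMOTL2 at 46.8 kb, with 177. Just outside, between 50 and 100 kb, 4 summits had one of these genes as the nearest coding gene. They lay 67.5 and 79.4 kb from CCN6, with pileups of 258 and 473, 85.4 kb from ANKRD1 (105) and 90.6 kb from CCN2 (48). The site 79.4 kb from CCN6, with 473, stood beside values of 460 and 457 for the strongest summits assigned to that gene.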

How the data were processed

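ATAC-seq was run on 12 libraries, and the peaks were deposited as 1 pooled list of 188019 lines with no library column, so no group or paired comparison was made. Per the submitters' processing notes, fastp 0.20.0, Bowtie2 2.4.3, deepTools 3.5.0, SAMtools and MACS2 2.2.7.1 were used with hg38; filters and duplicate handling are not given in the sources used here. The deposited columns used were the fold enrichment (a ratio over local background), p and q values on the −log10 scale, and a score that equals 10 times the −log10 q, truncated, in 99.8% of lines. These values are the authors'. The smallest −log10 q was 1.30.

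Pileup and background were solved from the enrichment, taken as (pileup + 1)/(background + 1), and the Poisson upper tail p. No label states this model. It gave whole pileups, within 0.05, in 99.96% of lines. The solving step was checked on data simulated from the same formulas, which cannot test the model itself. Summits were assigned to RefSeq GRCh38.p14 coding genes within 50 kb, and a summit inside overlapping coding genes counted for each. Start sites came from promoter windows for 15843 coding genes, and otherwise either gene end was used. Exon boundaries were not used. Python 3.11.15 with numpy 2.4.6, pandas 2.3.3, scipy 1.17.1 and matplotlib 3.10.9 was used. All 10 genes are named; other genes come from fixed lists or lie next to a summit. Genes and lists were chosen with earlier results of these data known, and no p-value was computed.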

Additional observations from a re-analysis of the deposited data

How the results depend on the processing

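Of 29 alternative settings over these counts, shares and medians, 25 stayed within the limits set for them and 4 moved. The limits differed between results: a median going from 8.70 to 8.58 counted as moved, and a count going from 58 to 47 did not. The 25 is therefore no measure of how little the values changed. Counting every summit within 50 kb, whichever coding gene was nearest, raised the summits of the 10 genes from 58 to 99. Restricting the genes to the 6 with an entry in the promoter table was added once the values were known. It left 5 of those 6 with a summit at a start, beside 10718 of the 15843 coding genes with an entry. No more than 6 could be counted under that setting, so the move from 9 is not a lower share by itself. A window of 500 bp lowered the median start enrichment from 8.70 to 8.58. Ranking the start summits by pileup in place of enrichment moved their median percentile among coding genes from 31.6 to 35.6. Settings counted as staying within the limits still changed some values. The summits fell from 58 to 47 within 25 kb and to 48 at a −log10 q of at least 10. The share away from a start fell from 77.6% to 70.7% with a window of 2500 bp. The summit at the start of CCN4, with a −log10 q of 3.43, was the only start lost at a −log10 q of at least 10. No paired analysis was possible because the list has no column for a library, and leaving out single replicates could not be run for the same reason. Without a depth per library, the Poisson intervals cover counting error in the pool only, and PCR duplicates among the fragments would make them too narrow.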
